A study of Homo sapiens with 8 samples.

Results

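The genes described here are 40 human genes of DNA replication and cell division, taken from a fixed list of symbols and measured on Affymetrix U133 Plus 2.0 arrays of Reh cells, with 19775 genes measured in all. Every probe set, the group of short probes that reads one transcript region, was taken where the platform annotation gave it exactly 1 of these symbols, which gave 87 probe sets out of 41091. Of the 40 genes, 14 replicate DNA (8 that license origins, 3 that work at the fork and 3 that make nucleotides), 8 are cyclins, CDK1 and CDC25 phosphatases, and 18 act in mitosis.

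Reh is an established human cell line from a precursor B-cell acute lymphoblastic leukemia. The cells had received 1 of 4 transfections. Mock cells carried control constructs. The IRF5-4D cells carried a constitutively active variant of IRF5, a transcription factor of innate immune signalling. The IKKβ(EE) cells carried a constitutively active variant of IKKβ, the kinase that marks the inhibitor of NF-κB for degradation. The combination cells carried both IRF5-4D and IKKβ(EE). Each group had 2 arrays, described as biological duplicates and carrying the numbers 1 and 3, and all 4 groups share the line and the act of transfection. The labels do not say which promoters drove the constructs, how many cells took them up or when the cells were harvested.

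Chromosomes are copied once per cell cycle because origins are licensed in G1 phase, when CDC6 and CDT1 help load the MCM2 to MCM7 ring, the later replicative helicase, onto DNA. E2F transcription factors then switch on genes of DNA synthesis around the entry into S phase. Genes of mitosis follow later under the MuvB complex with B-MYB and FOXM1, which recognises a promoter element called the cell cycle homology region (CHR), often beside CCAAT boxes bound by NF-Y. In proliferating leukemia cells both waves are active, and their transcripts are widely read as a measure of cycling.

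Promoters of 32 of the 40 genes were matched by symbol in a RefSeq table of build GRCh38.p14. MCM4, MCM5, CCNE2, AURKA, TTK, BIRC5, TPX2 and UBE2C were not matched. The 250 bases before the start are printed 5′ to 3′ on the gene's strand for the 3 matched genes with the lowest difference between the combination and IRF5-4D, which are CCNB1, CDC6 and MKI67, and for CDC25A, the lowest among those with the E2F core TTGGCGC. Capitals mark CCAAT boxes, the CHR core TTTGAA and E2F cores, on either strand. CDC6 lies at chr17:40287629-40287878 on the + strand, CDC25A at chr3:48188418-48188667 on the - strand, CCNB1 at chr5:69166900-69167149 on the + strand and MKI67 at chr10:128126424-128126673 on the - strand.
CDC6: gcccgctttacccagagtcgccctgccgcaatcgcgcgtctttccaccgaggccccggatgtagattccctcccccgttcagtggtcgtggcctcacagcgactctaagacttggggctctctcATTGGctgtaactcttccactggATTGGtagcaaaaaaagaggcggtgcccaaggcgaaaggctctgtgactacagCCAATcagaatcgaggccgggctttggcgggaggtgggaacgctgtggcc
CDC25A: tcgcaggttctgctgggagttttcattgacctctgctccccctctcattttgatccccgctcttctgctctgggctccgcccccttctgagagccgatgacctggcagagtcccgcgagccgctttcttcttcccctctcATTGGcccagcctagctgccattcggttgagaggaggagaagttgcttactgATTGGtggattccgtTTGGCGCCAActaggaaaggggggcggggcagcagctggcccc
CCNB1: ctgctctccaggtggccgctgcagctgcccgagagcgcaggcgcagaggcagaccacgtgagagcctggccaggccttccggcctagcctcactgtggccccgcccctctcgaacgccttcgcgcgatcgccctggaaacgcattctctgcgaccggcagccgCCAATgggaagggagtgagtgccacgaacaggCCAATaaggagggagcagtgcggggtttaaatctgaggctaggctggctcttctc
MKI67: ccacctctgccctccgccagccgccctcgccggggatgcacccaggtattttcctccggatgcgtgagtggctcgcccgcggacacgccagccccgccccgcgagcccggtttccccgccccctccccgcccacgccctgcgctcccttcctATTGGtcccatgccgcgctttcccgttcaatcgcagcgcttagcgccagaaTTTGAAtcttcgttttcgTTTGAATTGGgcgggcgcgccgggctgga

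These windows differ in what they hold. CDC6 has 3 CCAAT boxes, the first letters of which lie 126, 103 and 50 bases before the start. CDC25A has CCAAT boxes at 110 and 58 bases and the E2F core TTGGCGC read on both strands at 43 and 40 bases, as matches that overlap. CCNB1 has CCAAT boxes at 87 and 55 bases. MKI67 has the CHR core at 47 and 29 bases and CCAAT boxes at 98 and 24 bases, the last of which shares a base with the second CHR core.

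Over all matched promoters the elements were spread unevenly over the roles of the genes. TTTGAA, read on either strand, was in 7 of 13 promoters of mitosis genes (53.8%), 2 of 7 of the cyclin group (28.6%) and 1 of 12 of replication genes (8.33%), and in 10.9% of 15843 promoters of protein-coding genes. The E2F cores TTGGCGC or TTCCCGC were in 9 of 12 promoters of replication genes (75%), 3 of 7 of the cyclin group (42.9%) and 1 of 13 of mitosis genes (7.69%), against 10.5% of all. CCAAT was in 24 of the 32 promoters (75%), against 34.5% of all. GGCGGG, a GC box that can share bases with TTCCCGC read in reverse, was in 25 (78.1%), against 55.6% of all. A match describes letters only, and no binding was measured. Only these exact letters were searched, so a promoter without a match may still hold a variant of the element.

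**Figure D1:**
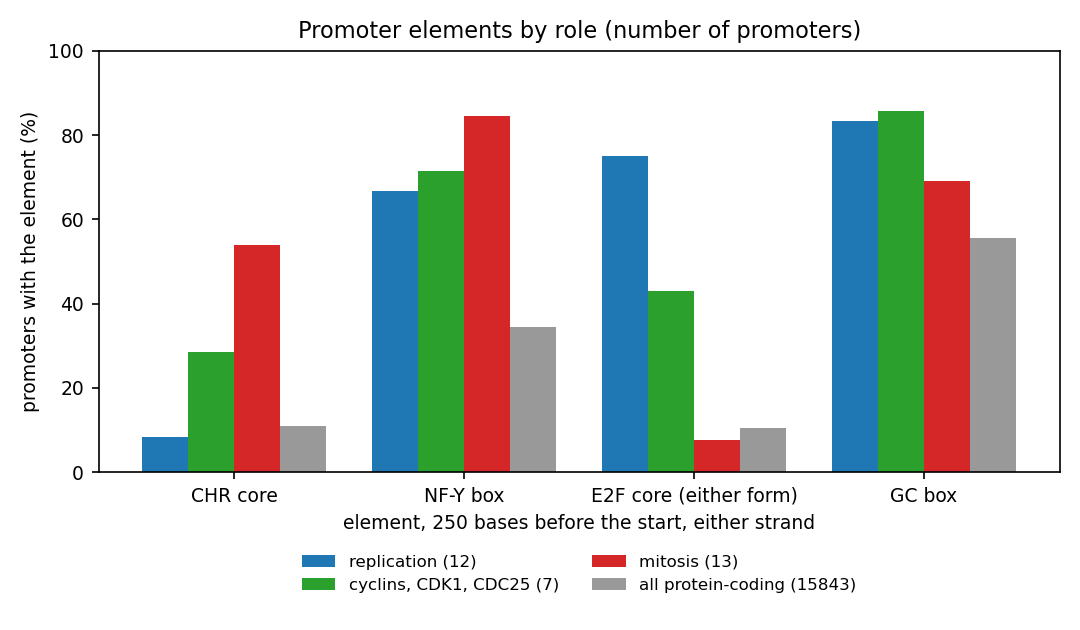
Percentage of promoters (250 bases before the start, either strand, y axis from 0 to 100%) that hold each of 4 elements (x axis), for 12 replication genes, 7 of the cyclin group, 13 mitosis genes and all 15843 protein-coding genes. The CHR core is in 53.8% of the mitosis promoters and the E2F cores are in 75% of the replication promoters, against 10.9% and 10.5% of all promoters.

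All values below are log2 expression values made with RMA, so a difference of 1 is a doubling. Array medians lay between 5.10 and 5.14, and every one of the 40 genes was above them on every array. The lowest value was 6.37, of PLK1, and no other gene had a group mean under 8.25. No filter on level was used, so all 40 were tested. Duplicate arrays correlated at 0.994 to 0.997. The IKBKB probe set 211027_s_at, which reads the gene of IKKβ, was at 12.57 and 10.98 in IKKβ(EE) cells, 11.11 and 9.33 in the combination, and at most 4.80 on the other 4 arrays. IKBKB probe sets 209341_s_at and 209342_s_at were not called with IKKβ(EE), at 0.14 and 0.03 from mock (limma, adjusted p = 0.914 and 0.990). Probe sets of a transfected gene thus did not all rise. None of the 3 IRF5 probe sets was called with IRF5-4D alone, with differences from mock of 0.57, 0.20 and 0.05 (limma, adjusted p = 0.701 to 0.995). The level of IRF5 does not bear out the label of those arrays, and it does not count against the label either. In the combination 1 of the 3 was called, at 0.92 (adjusted p = 0.00586). Of 15 measured precursor B-cell markers 14 were above the array median in every group, against 3 of 10 T and NK markers and 3 of 10 myeloid markers. Summed linear levels of 10 stromal and epithelial markers were 396 to 429 in mock, 384 to 414 in IRF5-4D, 366 to 388 in IKKβ(EE) and 533 to 890 in the combination, with 3 to 5 of the 10 above the median. The part of these markers in the results below was not tested.

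The combination had the lowest of the 4 group means for 35 of the 40 genes (87.5%, against 31.9% of all genes), and IRF5-4D had the highest for 33 (82.5%, against 21.9%). The order therefore ran from IRF5-4D at the top to the combination at the bottom for most of the genes. limma (Benjamini-Hochberg over 19775 genes, threshold 0.05) called only MCM5, and only for the combination against mock. In RNA from a whole culture, fewer cycling cells and less of a transcript per cell cannot be told apart.

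**Figure D2:**
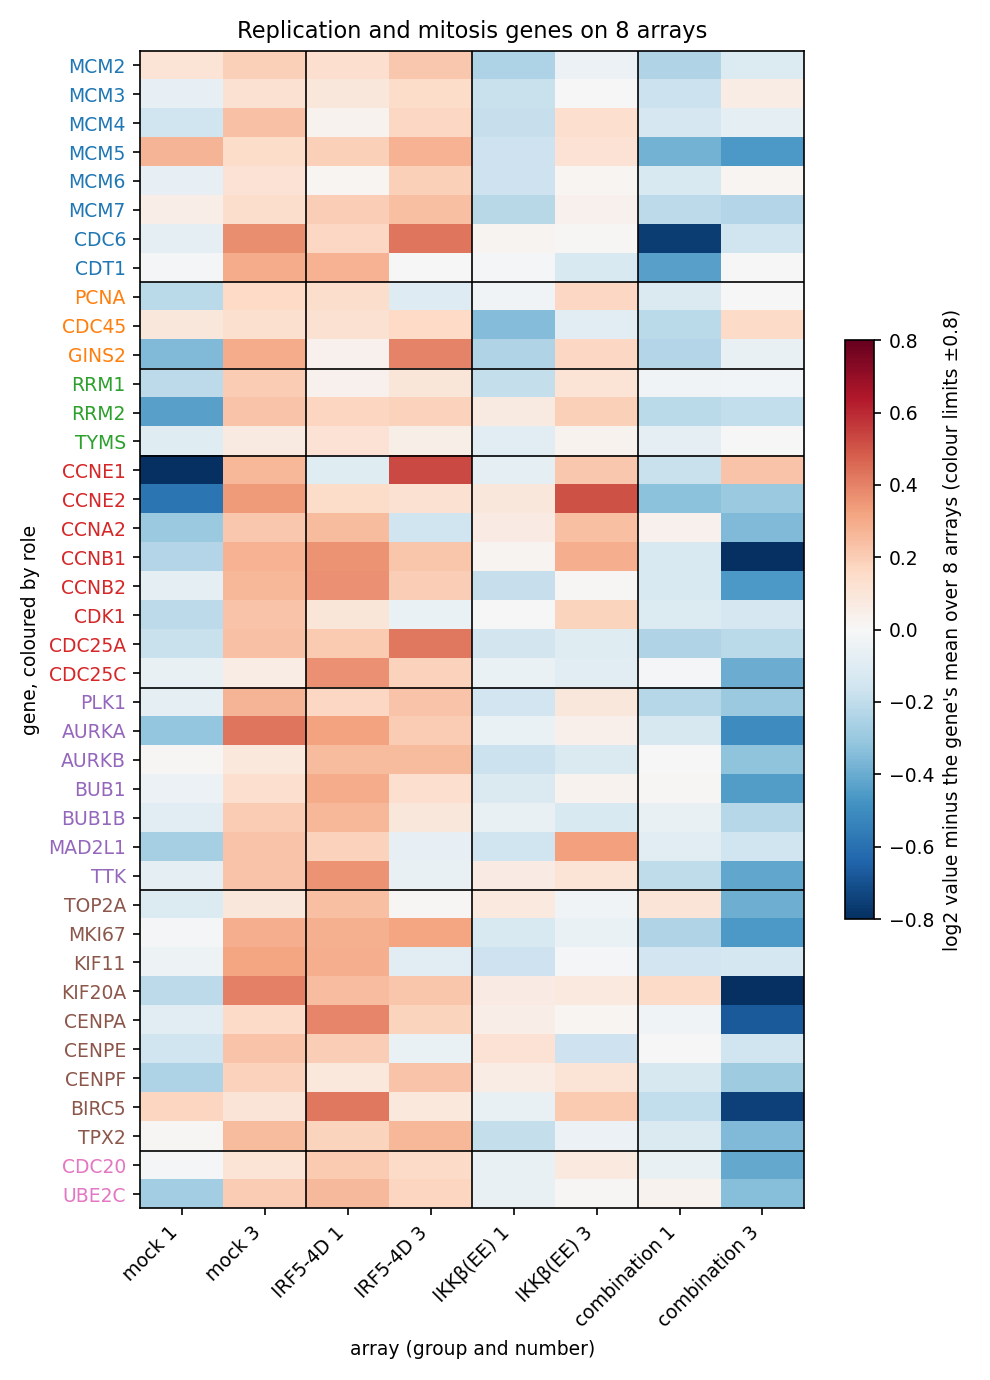
Log2 value of each of the 40 genes (rows, coloured by role) on each of the 8 arrays (columns), minus the gene's mean over the arrays; colours saturate at 0.8 in either direction. The IRF5-4D arrays and mock 3 are mostly red and combination 3 is mostly blue, while mock 1 and mock 3 differ for most genes.

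The mock duplicates differed more in these genes than in others, with a median absolute difference of 0.34 against 0.16 over all genes. Mock array 3 was higher than mock array 1 for 38 of the 40 genes, while 51% of all genes were higher on array 3. The exceptions were MCM5 and BIRC5. Mock 1 was the lowest of all 8 arrays for 9 genes and mock 3 was the highest for 10.

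In the combination the duplicates parted by role. Combination 3 was lower than combination 1 for 17 of 18 mitosis genes, by a median of 0.28 (log2 difference of array 3 minus array 1, -0.28), with KIF11 as the exception. It was higher for 12 of 14 replication genes, by a median of 0.12. Combination 3 was the lowest of the 8 arrays for 15 of the 18 mitosis genes, and for 2997 of all 19775 genes. Over all genes 50.4% were higher on combination 3 than on combination 1. IRF5-4D 3 was lower than IRF5-4D 1 for 14 of 18 mitosis genes (median -0.14) and higher for 11 of 14 replication genes (median 0.06). Of all genes 53.7% were higher on IRF5-4D 3. IKKβ(EE) 3 was higher than IKKβ(EE) 1 for 33 of the 40 genes, by a median of 0.15, and for 51.1% of all genes. Most replication genes were thus higher on array 3 in every group, with 13 of 14 in mock and 12 of 14 in IKKβ(EE). Mitosis genes were mostly higher on array 3 in mock (17 of 18) and IKKβ(EE) (14 of 18), unlike in IRF5-4D and the combination.

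**Figure D3:**
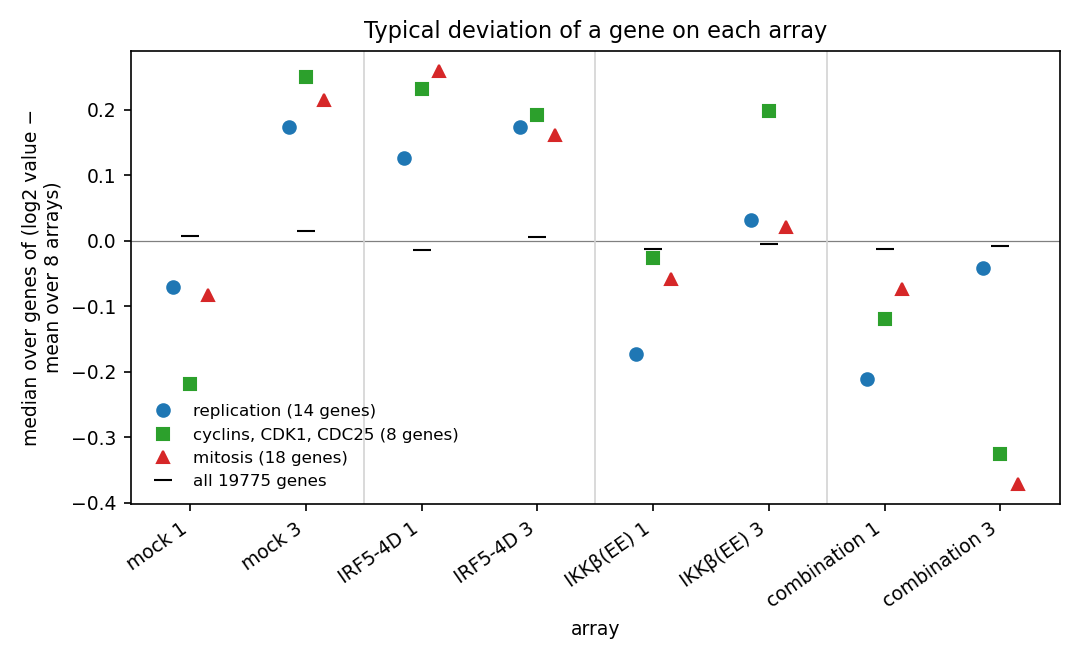
Median over genes of the log2 value minus the gene's mean over 8 arrays (y axis), for each array (x axis), for 14 replication genes, 8 of the cyclin group, 18 mitosis genes and all 19775 genes (dashes). The median of all genes stays near 0, while mitosis genes reach -0.37 on combination 3 and 0.26 on IRF5-4D 1.

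Set against IRF5-4D alone, all 40 genes had a lower mean in the combination, with a median difference of -0.38, while 51.3% of all genes were below 0 and their median was -0.006. Both combination arrays lay below both IRF5-4D arrays for 33 genes (82.5%), against 21.7% of all genes. None of the 40 passed the adjusted threshold of limma, which 1.41% of all genes did in either direction (242 higher and 37 lower). At an unadjusted p under 0.05, 20 were lower, against 5.08% of all genes. With each array left out in turn the number below 0 stayed between 38 and 40 and the median between -0.45 and -0.30. The 40 genes are not 40 separate observations, since they can shift together on 1 array. Between the mock duplicates 38 of the 40 differed in the same direction. Combination 1 against IRF5-4D 1 had a median of -0.31, with 40 below 0. Combination 3 against IRF5-4D 3 had a median of -0.44, with 38 below 0. Of the differences between group means, CCNB1, CDC6 and BIRC5 had the lowest, and PCNA (-0.08), RRM1 (-0.09) and TYMS (-0.12) the highest.

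MKI67, which encodes the proliferation marker Ki-67 that coats mitotic chromosomes, was at 9.91 and 9.94 in IRF5-4D cells and at 9.39 and 9.16 in the combination. Its values in mock cells were 9.61 and 9.92, and 9.50 and 9.57 in IKKβ(EE) cells. Both combination arrays were thus below all 6 others. The difference from IRF5-4D was -0.65 ± 0.14 (SE, n = 2 and 2 arrays; limma, adjusted p = 0.065), and the adjusted p was 0.0485 without either mock array and 0.0863 to 0.276 without any of the other 6 arrays.

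CCNB1, cyclin B1, the partner of CDK1 at mitotic entry, was at 11.60 and 11.46 with IRF5-4D and at 11.12 and 10.41 in the combination. Mock arrays read 11.00 and 11.51, and IKKβ(EE) arrays 11.26 and 11.53, so the combination overlapped mock. The difference from IRF5-4D was -0.76 ± 0.24 (limma, adjusted p = 0.215). It came to -0.41 without combination 3 and to -1.11 without combination 1.

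BIRC5, survivin, a subunit of the chromosomal passenger complex with Aurora B, was at 11.51 and 11.17 with IRF5-4D and at 10.89 and 10.34 in the combination. Mock arrays read 11.25 and 11.19, and IKKβ(EE) arrays 11.03 and 11.29. Both combination arrays were the lowest of the 8. The difference from IRF5-4D was -0.73 ± 0.20 (limma, adjusted p = 0.142). It was -0.45 without combination 3.

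CDC6, the loading factor, was at 9.27 and 9.53 with IRF5-4D and at 8.35 and 8.94 in the combination on its brighter probe set. Mock arrays read 9.03 and 9.48, and IKKβ(EE) arrays 9.12 and 9.11. The combination was again below all other arrays, with a difference from IRF5-4D of -0.75 ± 0.21 (limma, adjusted p = 0.163). That difference was -0.46 without combination 1 and -1.05 without combination 3. Its second probe set, 203968_s_at, had closer duplicates, with 8.63 and 8.48 in the combination and 9.28 and 9.39 with IRF5-4D. In a fit of every probe set that second one was called, at -0.78 (limma, adjusted p = 0.0402). It was the only one of the 87 probe sets called in this comparison, which called 1.03% of all probe sets. The call was kept only without either mock array (adjusted p = 0.0273) and was lost without any of the other 6, where the adjusted p ran from 0.0795 to 0.234.

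**Figure D4:**
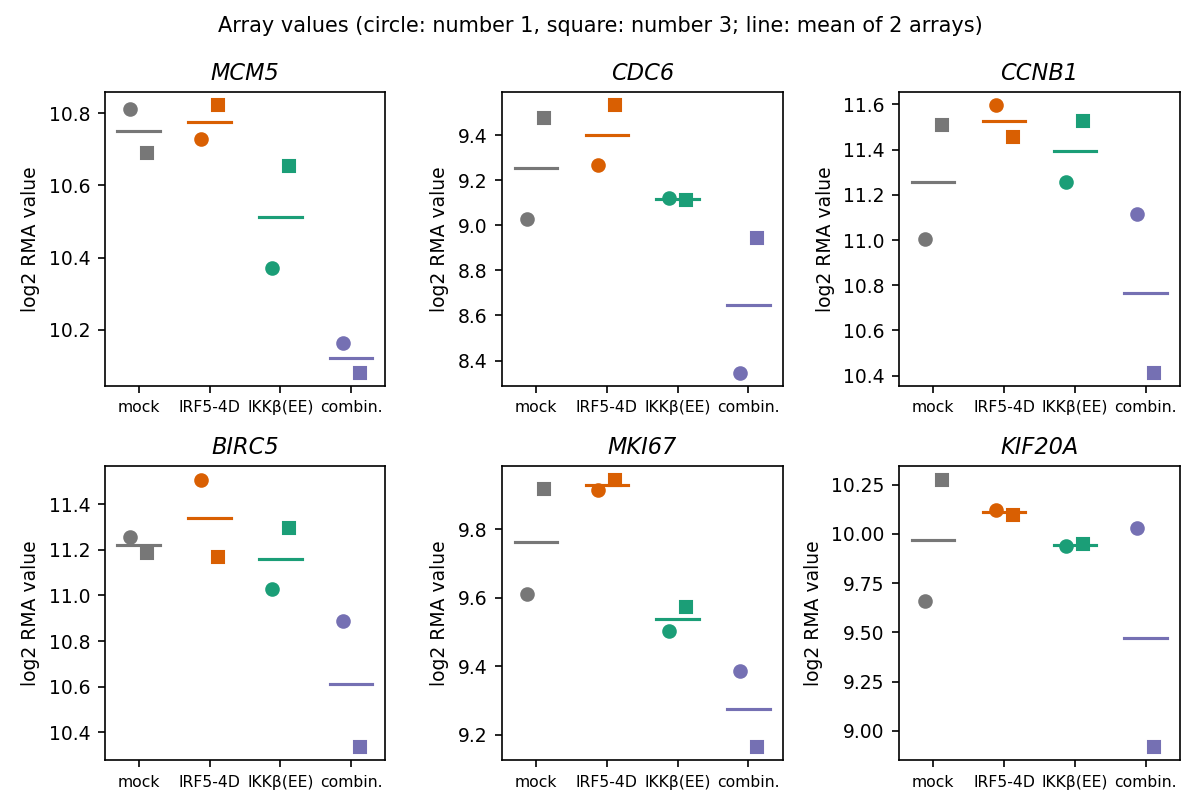
Log2 RMA values (y axis, own range for each gene, not starting at 0) of MCM5, CDC6, CCNB1, BIRC5, MKI67 and KIF20A on each array, with number 1 as circle and number 3 as square, and the mean of 2 arrays as line. MCM5, CDC6, BIRC5 and MKI67 have both combination arrays below the other 6, while CCNB1 and KIF20A owe their low mean mainly to combination 3.

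By role, the 8 licensing genes had a median difference of -0.35 between the combination and IRF5-4D, from -0.75 for CDC6 to -0.16 for MCM6. MCM5 followed CDC6, at -0.65 (adjusted p = 0.0522), and MCM7 was at -0.44. The fork genes PCNA, the sliding clamp, and CDC45 and GINS2, which activate the MCM helicase, were at -0.08, -0.17 and -0.36. RRM1 and RRM2, the subunits of ribonucleotide reductase, were at -0.09 and -0.38, and thymidylate synthase (TYMS) at -0.12. Without combination 1 the median of the 14 replication genes was -0.16 and 13 were below 0.

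Among the cyclin group the difference between the combination and IRF5-4D had a median of -0.46. CCNB2, the other B-type cyclin, was at -0.57, and the phosphatases CDC25A and CDC25C, which activate cyclin-dependent kinases, at -0.54 and -0.48. CCNE2 was at -0.45, CCNA2 at -0.21, CCNE1 at -0.19 and CDK1 at -0.14. CCNE1 and CCNE2 encode the E-type cyclins of S-phase entry, and CCNA2 the cyclin of S and G2 phase.

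The 18 mitosis genes had a median difference of -0.43 from IRF5-4D, and all were below 0 under each array left out. Of the kinases and checkpoint genes, AURKA was at -0.58, PLK1 and TTK at -0.46, BUB1 at -0.44, AURKB at -0.42, BUB1B at -0.32 and MAD2L1 at -0.18. Both combination arrays were below both IRF5-4D arrays for all 7. Of the spindle and chromosome genes, the mitotic kinesin KIF20A was at -0.64, the centromeric histone CENPA at -0.63 and the spindle factor TPX2 at -0.46. CENPF followed at -0.36, topoisomerase TOP2A at -0.27, the kinesin KIF11 at -0.25 and CENPE at -0.15. CDC20, an activator of the anaphase-promoting complex, was at -0.41 and UBE2C, its ubiquitin-conjugating enzyme, at -0.37. Without combination 3 the median of the 18 was -0.25, with KIF20A at -0.08, CENPA at -0.31 and TOP2A at -0.02. Without combination 1 CENPA was called, at -0.95 (limma, adjusted p = 0.0476).

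**Figure D5:**
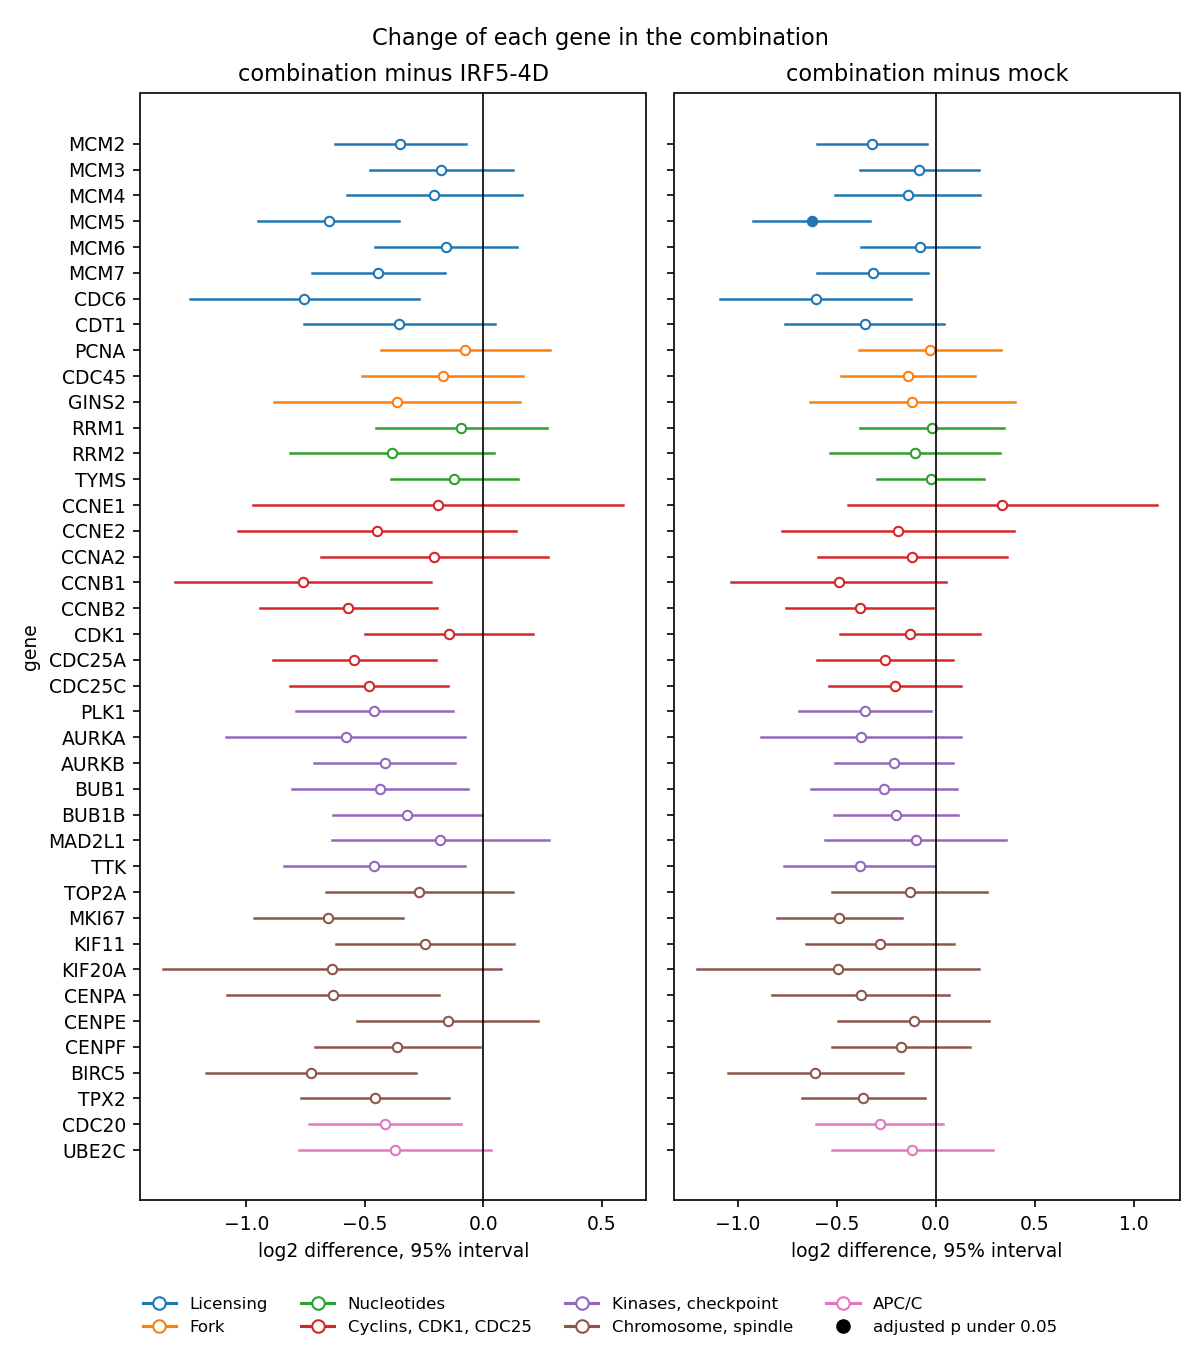
Log2 difference (x axis) of each of the 40 genes (rows, coloured by role) between the combination and IRF5-4D (left) and between the combination and mock (right), with the 95% interval from limma; a filled point has an adjusted p under 0.05. All 40 points on the left lie below 0, and MCM5 against mock is the only filled point.

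Set against mock, 39 of the 40 genes had a lower mean in the combination, with a median difference of -0.21 (all genes -0.03, with 55.6% below 0). The exception was CCNE1, at 0.34. limma called 1 of the 40, MCM5, which was lower. It called 3.16% of all genes in either direction, 526 higher and 99 lower. Over both directions the share among the 40 was thus not above the background, and 1 lower call is too few to compare. At an unadjusted p under 0.05, 10 were lower, against 7.5% of all genes. Both combination arrays were below both mock arrays for 14 genes (35%), against 25.1% of all. The number below 0 and the median moved with the mock arrays. Without mock 3 only 24 genes were below 0 and the median was -0.08. Without mock 1 all 40 were below 0 and the median was -0.37. By array number, combination 1 against mock 1 had a median of 0.03, with 18 of the 40 below 0 (53.2% of all genes). Combination 3 against mock 3 had a median of -0.46, with 39 below 0 (53.8% of all genes). The lower means against mock thus came mainly from the arrays numbered 3.

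MCM5, a subunit of the MCM ring, was at 10.81 and 10.69 in mock cells, 10.73 and 10.82 with IRF5-4D, 10.37 and 10.65 with IKKβ(EE), and 10.16 and 10.08 in the combination. The combination arrays lay below the other 6 by more than the gap between any duplicates but those of IKKβ(EE). MCM5 fell by 0.63 ± 0.13 on the log2 scale against mock, a 1.54-fold lower level (SE, n = 2 and 2; limma, adjusted p = 0.0374). The other MCM5 probe set, 201755_at, gave -0.53 and was not called in the fit of every probe set (adjusted p = 0.118). The MCM5 call was kept without either IKKβ(EE) array (adjusted p = 0.0442) and lost without any of the other 6 arrays (adjusted p from 0.0691 to 0.167), while its value stayed between -0.69 and -0.57.

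The other licensing genes were also below mock on the probe sets used, with a median of -0.32 over the 8. CDC6 was at -0.61 (-0.31 without combination 1 and -0.91 without combination 3), CDT1 at -0.36, MCM2 and MCM7 at -0.32, MCM4 at -0.14, and MCM3 and MCM6 at -0.08. The other CDT1 probe set, 209832_s_at, went the other way. It was at 8.44 and 8.35 in mock cells and at 8.48 and 8.92 in the combination. In the fit of every probe set, 2 of the 87 were called against mock, those of MCM5 at 216237_s_at (adjusted p = 0.0434) and CDC6 at 203968_s_at (-0.71, adjusted p = 0.0351), with 2.55% of all probe sets called. The CDC6 call against mock was kept only without mock 1 (adjusted p = 0.0307). The fork and nucleotide genes were between -0.14 (CDC45) and -0.02 (RRM1). Without mock 3 the median of the 14 replication genes was 0.01 and 6 were below 0. The cyclin group had a median of -0.20 against mock with 7 of 8 below 0, which became 0.02 with 4 of 8 below 0 without mock 3.

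All 18 mitosis genes were below mock, with a median of -0.28, and none was called. BIRC5 was lowest at -0.61 ± 0.20 (limma, adjusted p = 0.161), followed by KIF20A at -0.50 ± 0.32 and MKI67 at -0.49 ± 0.14. BIRC5 came to -0.33 without combination 3 and to -0.88 without combination 1. For KIF20A mock arrays read 9.66 and 10.28 and combination arrays 10.03 and 8.92, and without combination 3 its difference was 0.06. MAD2L1 (-0.10), CENPE (-0.11) and UBE2C (-0.12) were nearest to mock. The median of the 18 was -0.10 without combination 3 and -0.17 without mock 3, with 15 and 14 genes below 0. By array number it was 0.04 for number 1, with 8 genes below 0, and -0.56 for number 3, with all 18 below 0.

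Set beside the promoters printed above, the 10 genes with the CHR core had a median difference between the combination and IRF5-4D of -0.37, and the 22 without it of -0.36. For the E2F cores those medians were -0.35 with and -0.36 without. Against mock the medians with and without the CHR core were -0.28 and -0.16. The 13 genes with an E2F core were at a median of -0.12 against mock and the 19 without at -0.26. These are descriptions of few promoters that differ in role too.

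IRF5-4D alone left 38 of the 40 genes slightly above mock, with a median of 0.12, while 45.7% of all genes were above 0 and their median was -0.02. None was called by limma, which called 0.319% of all genes, and none had an unadjusted p under 0.05 in either direction, against 5.14% of all genes. CCNE1 was highest at 0.53, followed by CDC25A at 0.29 and RRM2 and CDC25C at 0.28. KIF11 (-0.04) and CDT1 (-0.01) were below 0 and CDK1, at 0.01, was the lowest above it. Both IRF5-4D arrays were above both mock arrays for 6 genes (15%), against 13.4% of all. The direction rested on mock 1: without it the median was -0.03 and 23 genes were below 0, and without mock 3 it was 0.26.

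CCNE1 was at 7.87 and 9.03 in mock cells, 8.66 and 9.29 with IRF5-4D, 8.68 and 8.98 with IKKβ(EE), and 8.58 and 8.99 in the combination. The single low array is mock 1, and mock 3 lies inside the range of the other groups. The gap between the mock arrays, 1.16, was the widest between duplicates of mock among the 40 genes.

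With IKKβ(EE) alone the values differed by role, a difference that was not tested. All 8 licensing genes were below mock, with a median of -0.16, while the 8 of the cyclin group had a median of 0.11 with 5 above 0. With arrays left out in turn these medians ran from -0.25 to -0.04 and from -0.14 to 0.34. Over the 40 genes 27 were below 0 (67.5%, all genes 56.2%) and the median was -0.06. None was called, against 0.516% of all genes, and MCM2 was the one gene with an unadjusted p under 0.05 (3.18% of all genes were lower at that p). MCM2 was at 11.56 and 11.64 in mock cells and at 11.20 and 11.40 with IKKβ(EE), a difference of -0.29 ± 0.12. CDC45, which was at 9.88 and 9.92 in mock cells and 9.44 and 9.70 with IKKβ(EE), had the lowest difference, -0.33. TPX2 came after MCM2, at -0.25.

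The highest differences with IKKβ(EE) were those of CCNE2 (0.42), CCNE1 (0.38) and RRM2 (0.23), genes in which mock 1 was the lowest array. Both IKKβ(EE) arrays were below both mock arrays for 8 genes (20%), against 21.2% of all. The median over the 40 genes was -0.22 without mock 1 and 0.08 without mock 3.

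Adding IRF5-4D to IKKβ(EE) went with lower means for 36 of the 40 genes and a median difference of -0.16 between the combination and IKKβ(EE), while 51.3% of all genes were below 0. limma called none of the 40 and 1.72% of all genes, and 5 were lower at an unadjusted p under 0.05 (4.38% of all genes). Those 5 were CCNB1 (-0.63), CCNE2 (-0.62), BIRC5 (-0.55), TTK (-0.40) and MCM5 (-0.39). Without combination 3 CCNB1 was at -0.28 and BIRC5 at -0.27, and without IKKβ(EE) 3 MCM5 was at -0.25. The highest differences were those of CDC45 (0.18), MCM3 (0.03) and MCM6 (0.02). Both combination arrays were below both IKKβ(EE) arrays for 15 genes (37.5%), against 20.7% of all. Combination 1 against IKKβ(EE) 1 had a median of 0.002, with 19 of the 40 below 0 (50.3% of all genes). Combination 3 against IKKβ(EE) 3 had a median of -0.31, with 35 below 0 (50.7% of all genes). The licensing genes, at a median of -0.11, were nearer to IKKβ(EE) than to mock or IRF5-4D, and all 18 mitosis genes were below it, at a median of -0.22. With arrays left out in turn those 2 medians ran from -0.19 to 0.03 and from -0.37 to -0.06. Between 27 and 38 of the 40 genes were then below 0. The IKBKB probe set 211027_s_at was at 12.57 and 10.98 in IKKβ(EE) cells and 11.11 and 9.33 in the combination. The part of this level in the comparison and in the interaction below was not tested.

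The interaction compares the combination with the sum of both single constructs. It was below 0 for 39 of the 40 genes, with a median of -0.35, while 46.7% of all genes were below 0 and their median was 0.02. None of the 40 was called by limma (0.126% of all genes were), and 5 were below 0 at an unadjusted p under 0.05, against 2.28% of all genes. CCNB1 was lowest at -0.90 ± 0.34, followed by CCNE2 at -0.87 and BIRC5 at -0.67, with CENPA (-0.64) and RRM2 (-0.62) as the other two under that p. CDC45, at 0.16, was the one gene above 0, and KIF11 (-0.01) and RRM1 (-0.05) were next. The interaction and the comparisons above share arrays: a low mock 1 lowers the interaction as it raises the single constructs, and without mock 1 the median was -0.15 with 30 of 40 below 0.

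Most genes with several probe sets gave the same direction on each. Of 47 probe sets beside the ones used, 43 had the same sign between the combination and IRF5-4D, and 37 against mock. The 4 that differed from IRF5-4D in sign belonged to BUB1, CCNB2, CDT1 and MCM4, of which 1 in BUB1 and 1 in CCNB2 had a mean level under the array medians. Those that differed in sign against mock included 209832_s_at of CDT1 and 209172_s_at of CENPF, both above the array medians. Between the combination and IRF5-4D, all 4 BIRC5 probe sets lay between -0.84 and -0.46 and all 4 MKI67 probe sets between -0.65 and -0.33. CDT1 and CENPA were read by probe sets of the _x_at kind, whose probes can also match other transcripts.

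Further genes of the same pathways were read from lists chosen from general knowledge. Of 49 other replication genes limma called none in any of the 6 comparisons. At an unadjusted p under 0.05, 4 were lower in the combination against mock and 13 against IRF5-4D, where 7.5% and 5.08% of all genes were, so the 4 lie near the background. Against mock the combination had a median of -0.09 over them, from POLE, the catalytic subunit of DNA polymerase epsilon, at -0.52 (adjusted p = 0.0603) to POLA2, a subunit of polymerase alpha, at 0.30. Against IRF5-4D 42 of the 49 were below 0, with CHAF1A, a histone chaperone of replicated DNA, lowest at -0.53 and ORC5, of the origin recognition complex, highest at 0.23. Of 60 other mitosis genes limma called none either, and 18 and 29 were lower at that p, against the same shares of all genes. The medians were -0.24 against mock and -0.36 against IRF5-4D, where 57 of 60 were below 0. CDCA2, which brings a phosphatase to mitotic chromatin, was lowest in both, at -0.65 and -0.96. WEE1, the kinase that restrains CDK1, was highest against mock, at 0.17, and the spindle checkpoint gene MAD1L1 against IRF5-4D, at 0.23.

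Calls appeared among the regulators of the step into S phase. Of 29 such genes CCND2 and CCND1, which encode D-type cyclins that act with CDK4 and CDK6, were called, and both rose. In the combination against mock limma called 2 of the 29 and 526 of all 19775 genes higher. At an unadjusted p under 0.05, 7 of the 29 were lower and 4 higher there, and the median of the 29 was -0.07. CCND2 was at 3.80 and 3.78 in mock cells, 5.76 and 5.52 with IRF5-4D, 5.73 and 5.93 with IKKβ(EE), and 9.05 and 7.90 in the combination. It rose by 1.85 ± 0.30 with IRF5-4D (adjusted p = 0.0482), 2.04 ± 0.30 with IKKβ(EE) (adjusted p = 0.0216) and 4.69 ± 0.30 in the combination (limma, adjusted p = 5.25e-05). The mock values are near the lower quartile of the arrays, 3.67 to 3.73, so the size of these rises is uncertain. With arrays left out in turn the combination was called in 8 of 8 fits. Each single construct was called only in 2 of 8, with an adjusted p up to 0.506 for IRF5-4D (without IRF5-4D 1) and 0.172 for IKKβ(EE) (without IKKβ(EE) 3).

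CCND1 was at 4.94 and 4.86 in mock cells, 5.03 and 4.99 with IRF5-4D, 5.63 and 5.09 with IKKβ(EE), and 7.01 and 6.13 in the combination. It rose by 1.67 ± 0.27 in the combination against mock (limma, adjusted p = 0.00999) and by 1.56 against IRF5-4D (adjusted p = 0.0276). The mock and IRF5-4D values lie under the array medians, so the size of these rises is uncertain. The call against mock was lost without mock 1 (adjusted p = 0.0524). The call against IRF5-4D was lost without IRF5-4D 1, IRF5-4D 3 or combination 1 (adjusted p = 0.192, 0.186 and 0.0631).

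The transcription factors of the replication and mitosis programmes were not called. MYBL2, which encodes B-MYB, was at 10.08 and 9.85 in mock cells and 9.19 and 9.65 in the combination, a difference of -0.55 ± 0.20 (limma, adjusted p = 0.208). E2F1 had group means of 8.71 in mock and 8.37 in the combination, and FOXM1 of 9.41 and 9.28.

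Of 6 measured inhibitors of cyclin-dependent kinases, CDKN1A, p21, was called. It was at 10.27 and 9.91 in mock cells, 10.41 and 10.32 with IRF5-4D, 11.34 and 10.80 with IKKβ(EE), and 11.03 and 11.05 in the combination. It rose by 0.95 ± 0.19 in the combination (limma, adjusted p = 0.0285). The difference with IKKβ(EE) was 0.98 ± 0.19 and was not called (adjusted p = 0.0744), but it was without IKKβ(EE) 3 (adjusted p = 0.0476). The call in the combination was kept without mock 1 and without either IKKβ(EE) array and lost without any of the other 5 (adjusted p from 0.0611 to 0.111). Between the combination and IKKβ(EE) the p21 transcript differed by -0.03 ± 0.19. Any part of p21 in the levels of the 40 genes was not tested.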

How the data were processed

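RNA of 8 cultures of transfected Reh cells was measured on Affymetrix U133 Plus 2.0 arrays. The deposited table holds log2 values for each probe set on each array, which the authors made with RMA, per the submitters' processing notes. RMA corrects background, quantile-normalizes the arrays and summarises probes, so a shift shared by most transcripts is removed; no version of it is given in the sources used here. Of 54675 probe sets, 62 controls and 13522 others without exactly 1 symbol in the platform annotation were left out.

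Each of 19775 genes was read by its probe set with the highest mean over the arrays. Group means of all 8 arrays were fitted in limma 3.58.1 (R 4.3.3), where the residual degrees of freedom were 4 and the prior ones 5.09, and p-values were adjusted by Benjamini-Hochberg over all genes. The script was tested on simulated data. With 2 arrays a group, the median SE of a difference was 0.14 (interaction 0.20), so the small number of arrays sets the precision.

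The 40 genes, their roles, the pathway lists and the markers were chosen with earlier results of these data known. Genes are described by role; the called genes of a comparison are named or, where fewer than 6 are, also the 3 highest and 3 lowest, and of other pathway lists the called genes or the highest and lowest. Alternatives were other probe sets, filters, normalizations, variance models, samples and thresholds, and each array left out. Element shares come from RefSeq promoters, counting 1 promoter a gene, the most upstream start.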

Additional observations from a re-analysis of the deposited data

How the results depend on the processing

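The medians over the 40 genes kept their direction and moved by less than the SD between duplicates, 0.12, under averaged probe sets, the filter on level, renewed normalization and the replicate block. The count called against mock for the combination was 0 where a gene's probe sets were averaged (MCM5 at -0.58, adjusted p = 0.0559) and 0 with only the groups compared (adjusted p = 0.103). Between the combination and IRF5-4D the count was 2 under the replicate block (MCM5 and CDC6) and 2 at an adjusted p under 0.1 (MCM5 and MKI67). Leaving out each array in turn gave counts of 0 to 1 in both of these comparisons and 0 to 0 in the other 4. The medians then ran from -0.026 to 0.26 for IRF5-4D against mock, -0.22 to 0.080 for IKKβ(EE) against mock, -0.37 to -0.080 for the combination against mock, -0.45 to -0.30 against IRF5-4D, -0.25 to -0.11 against IKKβ(EE), and -0.45 to -0.15 for the interaction. The genes below 0 numbered 1 to 23, 24 to 40 and 38 to 40 for IRF5-4D against mock and the combination against mock and IRF5-4D, and the probe sets called against mock 0 to 1 in place of 2, in alternatives chosen after seeing the data. A lone array left in a group is assumed to vary like the other groups. The cause of these shifts was not tested.

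The numbers 1 and 3 were not treated as pairs. Over all genes the differences of array 3 minus array 1 correlated by 0.33 between mock and IRF5-4D, 0.34 between mock and IKKβ(EE), 0.22 between IRF5-4D and IKKβ(EE), 0.11 between the combination and either single construct, and -0.07 between mock and the combination. Beside the 2 calls given above between the combination and IRF5-4D, the replicate block changed no count of calls, and it left 2 member probe sets called against mock.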
